A study of Saccharomyces cerevisiae with 4 samples.

Results

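The PAU and COS genes of Saccharomyces cerevisiae form 2 multigene families that lie mostly near chromosome ends. Members were the probes whose platform symbol was PAU or COS followed by a number, which gave 35 of 5539 named genes, each with 1 of the 6226 probes: 23 PAU genes, 11 COS genes and COS111. COS111 (YBR203W) was named for sensitivity to the antifungal drug ciclopirox and is not related to the COS family, so it is given apart. RefSeq's R64 gene table, which all 35 matched, lists 24 PAU genes, of which PAU9 was not analysed here, and 11 COS family genes, all of them with a probe.

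PAU genes encode seripauperins, small serine-poor relatives of the TIR and DAN mannoproteins of the cell wall. Many of them are repressed by oxygen and haem in aerobic culture and are expressed in anaerobic growth and alcoholic fermentation. COS genes encode membrane proteins of the DUP380 group, which carry ubiquitin and help to sort other membrane proteins from endosomes into the vacuole. The X element, a repeat found at yeast chromosome ends, commonly contains an Abf1 binding site, and Abf1 is a general regulatory factor of promoters, replication origins and silencers.

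Total RNA was compared on 4 arrays with 2 channels each, and these form 1 group. Channel 1 held RNA of cells with the abf1-1 allele, a temperature-sensitive form of ABF1, and channel 2 held wild type RNA, on all 4 arrays. Both strains were grown at 30 °C in the rich medium YPAD to an OD600 of 1.0 to 1.2, received an equal volume of YPAD warmed to 42 °C, and were harvested after 45 min at 36 °C, so the warming was shared by both channels. The labels give neither the strain background nor whether the arrays came from separate cultures, and p-values therefore reflect no more than the variation from array to array, which may be technical. Each value is a ratio within an array, taken as log2, with the sign as deposited; neither the log base nor the strain in the numerator is stated, so ratios are called positive or negative and not higher in 1 strain. A ratio carries no level of expression, and the deposited values give no depth or brightness. Near-identical copies can share signal on the same probes, which brings their ratios closer together, and the probe sequences were not used here. The part of this sharing in the results was not tested, and members of a family are not independent measurements.

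The arrays did not all vary alike. Over all 6189 features, which are genes after probes of the same gene had been averaged and unnamed probes, the Pearson correlation across features was 0.742 between arrays 1 and 3 and 0.864 between arrays 2 and 4, while between these pairs it ran from -0.22 to 0.05. The labels name no batch that parts the arrays this way. The value on each array, or the means within the pairs, are therefore given for the members.

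Most PAU genes had small positive ratios. Of 23 PAU genes, 21 had a positive mean (91.3%), against 52.5% of all features, and the median of their mean log2 ratios was 0.28, a 1.21-fold difference, against 0.02 over all features. The median over the 23 genes was 0.28 on array 1, 0.15 on array 2, 0.30 on array 3 and 0.30 on array 4, so every array gave a positive family median and array 2 the lowest. Arrays 1 and 3 gave a median pair mean of 0.34, and arrays 2 and 4 gave 0.22. No mean exceeded 1.5-fold. The ratio was positive on all 4 arrays for 16 PAU genes (69.6%), against 14.7% of all features, and negative on all 4 for 1, PAU7, against 16.4%.

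None of these ratios passed the test. Limma, fitted over all 6189 features with 0 as the null value, called at an adjusted p below 0.05 0 of 23 PAU genes, against 3.23% of all features. At an unadjusted p below 0.05 there were 11 PAU genes, 10 positive and 1 negative, against 20.8% of all features (9.71% positive, 11.1% negative). With a pair term in the model, which leaves only the spread within pairs as error, limma called 15 PAU genes, 14 positive and 1 negative, against 32.7% of all features (16.7% positive, 16.0% negative). If the signs of arrays 2 and 4 were turned, the PAU median would be 0.03.

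**Figure D1:**
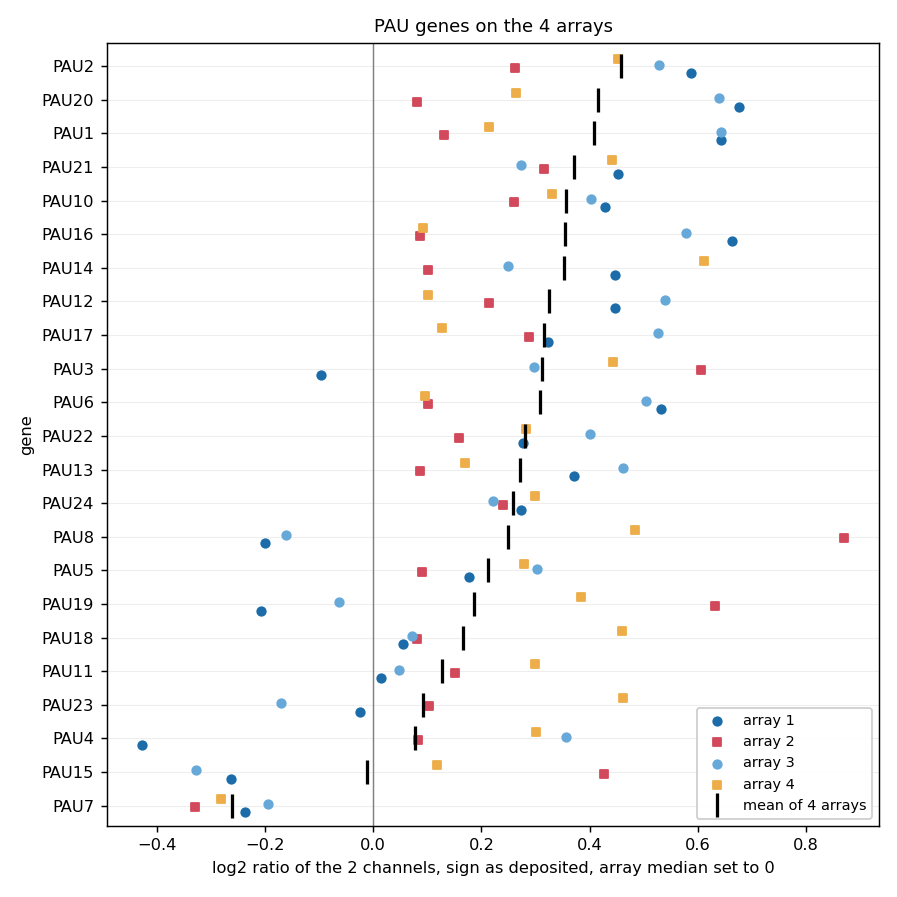
Log2 ratios of the 23 PAU genes (rows, ordered by mean) on arrays 1 to 4 (coloured points), with the mean of the 4 arrays as a black tick. Nearly all means lie to the right of 0, PAU7 has all 4 points to the left, and no mean exceeds the 0.46 of PAU2.

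PAU2 (YEL049W), whose place on chromosome V is 30 genes from the left end, had the largest mean of the family. Its log2 ratios on arrays 1 to 4 were 0.59, 0.26, 0.53 and 0.45, a mean of 0.46 ± 0.14 (SD, n = 4), with a limma adjusted p of 0.0933. All 4 arrays were positive, and PAU2 had the lowest adjusted p of the family. It was called with the term for the pair (limma adjusted p 0.00551), on arrays 1 and 3 alone (0.0142) and on arrays 2 and 4 alone (0.0428). In these fits 32.7%, 33.3% and 42.0% of all features were called. They reuse the same 4 values and are not separate support.

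A set of seripauperin genes had larger ratios on arrays 1 and 3 than on arrays 2 and 4. PAU20 (YOL161C) had 0.68, 0.08, 0.64 and 0.26 on arrays 1 to 4, with a mean of 0.41 ± 0.29 (SD, n = 4). PAU1 (YJL223C) had 0.64, 0.13, 0.64 and 0.21, with a mean of 0.41 ± 0.27. PAU16 (YKL224C), the outermost annotated coding gene at the left end of chromosome XI, had 0.66, 0.09, 0.58 and 0.09, with a mean of 0.36 ± 0.31. In these 3 genes both values of arrays 1 and 3 lay above both values of arrays 2 and 4, though all were positive. Their gaps between the pairs ranked 2492, 2587 and 2231 of 6189 features from the largest, so gaps of this size were common. The share of all features without overlap between the pairs was not counted. PAU12 (YGR294W) had 0.45, 0.21, 0.54 and 0.10, PAU6 (YNR076W) had 0.53, 0.10, 0.50 and 0.10, and PAU13 (YHL046C) had 0.37, 0.09, 0.46 and 0.17. The means of these were 0.33 ± 0.20, 0.31 ± 0.24 and 0.27 ± 0.17, and their gaps ranked 3499, 2919 and 3896. PAU2 and PAU10, described apart, also had their larger values on arrays 1 and 3. PAU17 (YLL025W), which lies between the chaperone genes HSP104 and SSA2 on chromosome XII and not at an end, had 0.32, 0.29, 0.53 and 0.13, with a mean of 0.32 ± 0.16. Its neighbours had negative means, -0.20 for HSP104 and -0.62 for SSA2.

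A second set varied little between arrays. PAU24 (YBR301W), also known as DAN3, had 0.27, 0.24, 0.22 and 0.30, a mean of 0.26 ± 0.03 (SD, n = 4), and its SD ranked 23 of 6189 from the smallest. PAU10 (YDR542W) had 0.43, 0.26, 0.40 and 0.33, with a mean of 0.36 ± 0.08. PAU21 (YOR394W) had 0.45, 0.32, 0.27 and 0.44, with a mean of 0.37 ± 0.09. For these genes the ratio was positive on every array and several times its SD, with limma adjusted p of 0.212, 0.125 and 0.119. PAU22 (YPL282C), which with PAU21 has the longest annotated gene of the family at 495 bases, had 0.28, 0.16, 0.40 and 0.28, with a mean of 0.28 ± 0.10. PAU5 (YFL020C) had 0.18, 0.09, 0.30 and 0.28, with a mean of 0.21 ± 0.10. PAU14 (YIL176C) had 0.45, 0.10, 0.25 and 0.61, with a mean of 0.35 ± 0.22, and its arrays varied more.

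PAU18 and PAU11 were also positive on all 4 arrays, but close to 0 on most of them. PAU18 (YLL064C) had 0.05, 0.08 and 0.07 on arrays 1 to 3 and 0.46 on array 4, with a mean of 0.17 ± 0.20 (SD, n = 4). PAU11 (YGL261C) had 0.01, 0.15, 0.05 and 0.30, with a mean of 0.13 ± 0.13.

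In 4 PAU genes the sign differed between the pairs, negative on arrays 1 and 3 and positive on arrays 2 and 4. This was 17.4% of the family, near the 18.0% of all features with that pattern, and 0 PAU genes had the opposite one, against 16.9%. PAU8 (YAL068C), at the left end of chromosome I, had -0.20, 0.87, -0.16 and 0.48, the widest range among PAU genes. PAU19 (YMR325W) had -0.21, 0.63, -0.06 and 0.38, PAU15 (YIR041W) had -0.26, 0.43, -0.33 and 0.12, and PAU23 (YLR037C), also known as DAN2, had -0.02, 0.10, -0.17 and 0.46. The means of these 4 genes ran from -0.01 for PAU15 to 0.25 for PAU8, each smaller than its SD. In PAU3 (YCR104W) and PAU4 (YLR461W) array 1 alone was negative. PAU3 had -0.10, 0.61, 0.30 and 0.44, with a mean of 0.31 ± 0.30, and PAU4 had -0.43, 0.08, 0.36 and 0.30, with a mean of 0.08 ± 0.36.

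PAU7 (YAR020C) stood apart from the family. Its log2 ratios were -0.24, -0.33, -0.19 and -0.28, a mean of -0.26 ± 0.06 (SD, n = 4) with a limma adjusted p of 0.215, or 0.0334 with the term for the pair. The only PAU gene negative on all 4 arrays, it is also the shortest of those measured, with 168 annotated bases where the others have 363 to 495. The neighbouring cell cycle kinase gene CDC15 had a positive mean of 0.48.

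The median ratio also differed with annotated length on arrays 1 and 2, a split chosen after the values were seen, though single genes overlapped. The 13 PAU genes of 363 bases had medians of 0.43, 0.13, 0.40 and 0.30 on arrays 1 to 4. The 7 genes of 369 to 375 bases, PAU3, PAU5, PAU15, PAU16, PAU17, PAU19 and PAU23, had -0.02, 0.29, 0.30 and 0.28. On array 1 the shorter genes had the larger median and on array 2 the longer ones, and on arrays 3 and 4 the medians lay closer together. PAU16 and PAU5 among the longer genes, with 0.66 and 0.18 on array 1 and 0.09 on array 2 in both, went against this, as did PAU8 among the shorter ones, with -0.20 and 0.87. The shorter PAU4, PAU11 and PAU18 were low on array 1 too, at -0.43, 0.01 and 0.05. On that array 11 of the 13 shorter genes and 3 of the 7 longer ones were positive. Across the 23 genes, which can share signal, the Pearson correlation was 0.795 between arrays 1 and 3 and 0.507 between arrays 2 and 4, and from -0.25 to 0.00 between the pairs.

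The COS family had a similar median and a wider spread than the PAU family. Of 11 COS genes 9 had a positive mean (81.8%, against 52.5% of all features), and the median of the means was 0.25, a 1.19-fold difference. The family median was 0.21, -0.03, 0.36 and 0.41 on arrays 1 to 4, so array 2 gave no shift in the direction of the others. Arrays 1 and 3 gave a median pair mean of 0.26, and arrays 2 and 4 gave 0.22. Limma called 0 of 11 COS genes, against 3.23% of all features, and 4 had an unadjusted p below 0.05, 3 positive and 1 negative, against 20.8%. With the term for the pair it called 6 (54.5%), against 32.7%, and these were 5 positive genes (COS8, COS6, COS3, COS7 and COS2) and 1 negative gene (COS9), against 16.7% and 16.0%. The ratio was positive on all 4 arrays for 3 COS genes (27.3%, against 14.7% of all features). If the signs of arrays 2 and 4 were turned, the COS median would be 0.03.

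**Figure D2:**
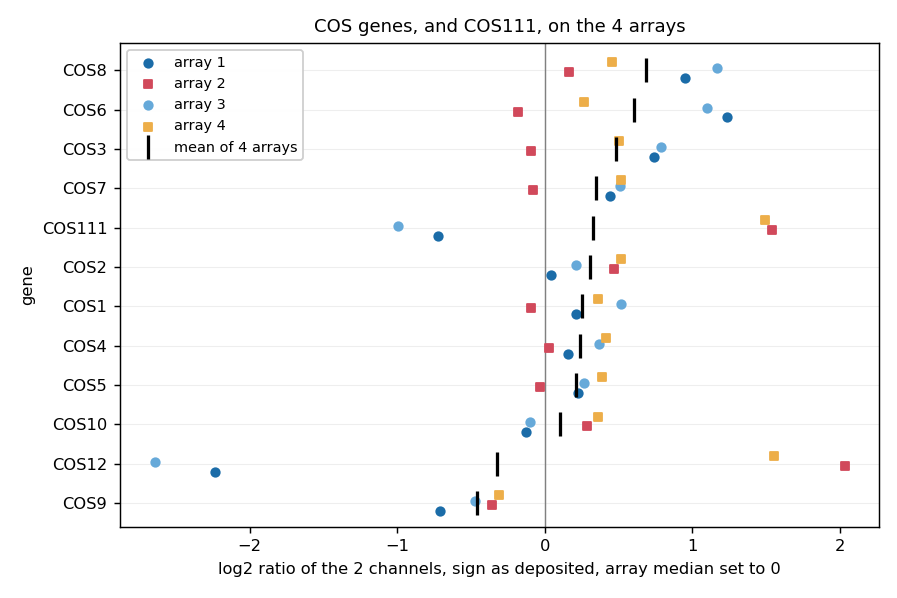
Log2 ratios of the 11 COS genes and COS111 (rows, ordered by mean) on arrays 1 to 4 (coloured points), with the mean of the 4 arrays as a black tick. The values of COS12 run from -2.64 to 2.03 and those of COS111 from -0.998 to 1.54, while the points of the remaining genes lie between -0.71 and 1.24.

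COS8 and COS6 were the COS genes with means above 1.5-fold, 2 of 11 against 7.00% of all features. COS8 (YHL048W), near the left end of chromosome VIII, had 0.95, 0.16, 1.16 and 0.45, a mean of 0.68 ± 0.46 (SD, n = 4), or 1.60-fold, and limma's adjusted p was 0.127. COS6 (YGR295C), near the right end of chromosome VII, had 1.24, -0.18, 1.10 and 0.27, a mean of 0.61 ± 0.68, or 1.52-fold, and limma's adjusted p was 0.267. Both had their large values on arrays 1 and 3, where the pair means were 1.06 and 1.17, against 0.31 and 0.04 on arrays 2 and 4. Fitted on arrays 1 and 3 alone, both passed limma's threshold, with adjusted p of 0.00398 and 0.00285, where 33.3% of all features did. On arrays 2 and 4 alone neither passed, with 0.0821 and 0.826, where 42.0% of all features did.

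Of the remaining COS genes with positive means, 4 had a single negative value, on array 2. COS3 (YML132W) had 0.74, -0.10, 0.79 and 0.50, with a mean of 0.48 ± 0.41 (SD, n = 4). COS7 (YDL248W) had 0.44, -0.08, 0.51 and 0.52, with a mean of 0.35 ± 0.29. COS1 (YNL336W) had 0.21, -0.09, 0.52 and 0.36, with a mean of 0.25 ± 0.26. On the other 3 arrays these genes were all positive, and the same held for COS5 (YJR161C), with 0.22, -0.03, 0.26 and 0.39 and a mean of 0.21 ± 0.18. COS4 (YFL062W) was positive throughout, with 0.16, 0.03, 0.36 and 0.41 and a mean of 0.24 ± 0.18, and array 2 was its lowest as well.

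COS2 and COS10 had their larger values on arrays 2 and 4. COS2 (YBR302C), the outermost annotated coding gene at the right end of chromosome II, had 0.04, 0.47, 0.21 and 0.51, with a mean of 0.31 ± 0.22 (SD, n = 4). COS10 (YNR075W) had -0.13, 0.28, -0.10 and 0.36, with a mean of 0.10 ± 0.26. In both genes the pairs of arrays did not overlap, but their gaps between pairs ranked only 3324 and 2773 of 6189 features. The share of all features without overlap was not counted, so this is not a trait particular to these genes.

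COS9 and COS12 had negative means and differed in their consistency. COS9 (YKL219W), between the iron reductase gene FRE2 and the dehydratase gene SRY1 on chromosome XI, had -0.71, -0.36, -0.47 and -0.31, a mean of -0.46 ± 0.18 (SD, n = 4). All 4 arrays were negative, with limma adjusted p of 0.102 over 4 arrays and 0.0059 with the term for the pair. It has the longest annotated gene of the COS family, 1224 bases where the others have 1125 to 1152. FRE2 and SRY1 had positive means of 0.51 and 0.30. The mean of FRE2 came from arrays 2 and 4, as its values were -0.41, 1.57, -0.0022 and 0.86. SRY1 was positive on all 4 arrays.

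COS12 (YGL263W), the outermost annotated coding gene at the left end of chromosome VII, had the largest gap between the pairs of arrays among all 6189 features. Its log2 ratios were -2.23 on array 1 and -2.64 on array 3, against 2.03 on array 2 and 1.55 on array 4. The pair means of -2.44 and 1.79 correspond to 5.42-fold and 3.46-fold differences of opposite sign, and the mean over 4 arrays, -0.32 ± 2.46 (SD, n = 4), describes neither pair. Limma's adjusted p was 0.878 over 4 arrays, 0.00157 on arrays 1 and 3 alone and 5.87e-06 on arrays 2 and 4 alone. On these pairs alone 33.3% and 42.0% of all features were called. The adjacent YGL262W had the same pattern, with -2.64, 1.72, -2.14 and 1.60, and its gap between pairs ranked 3. PAU11, the next gene on that arm, did not, with a range from 0.01 to 0.30. With the signs of arrays 2 and 4 turned COS12 was the 1 COS gene called, with a mean of -2.12 and a limma adjusted p of 0.00936, where 4.88% of all features were called.

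COS111 had a pattern of the same kind without being a member of the family. Its log2 ratios were -0.73, 1.54, -0.998 and 1.49 on arrays 1 to 4, with a mean of 0.33 ± 1.38 (SD, n = 4) and a limma adjusted p of 0.77. The pair means were -0.86 and 1.51, so here too the mean over 4 arrays describes neither pair. COS111 passed limma's threshold with the term for the pair (adjusted p 0.0226), where 32.7% of all features did. It also passed, with opposite signs, on arrays 1 and 3 alone (0.00617) and on arrays 2 and 4 alone (6.29e-06). In those fits 33.3% and 42.0% of all features passed. With turned signs its mean was -1.19 and limma's adjusted p 0.019, where 4.88% were called. Its gap between pairs ranked 110 of 6189. It lies in the interior of chromosome II, 100 genes from the right end.

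**Figure D3:**
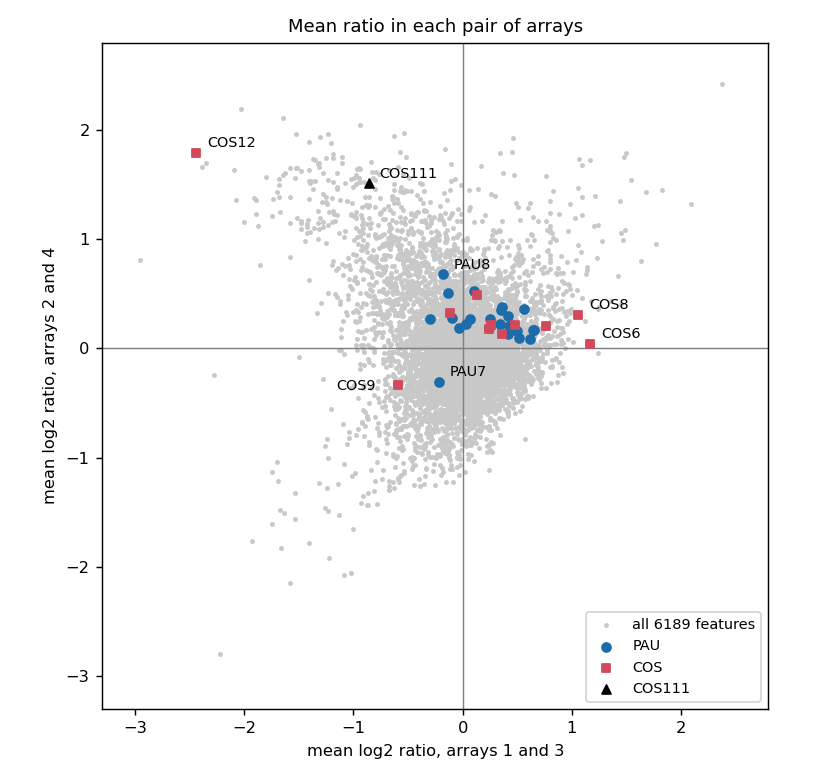
Mean log2 ratio on arrays 1 and 3 (horizontal) against that on arrays 2 and 4 (vertical) for all 6189 features (grey), PAU genes (blue), COS genes (red) and COS111 (black triangle). COS12 lies far to the upper left, at -2.44 and 1.79, and most PAU genes lie a little above and to the right of the centre.

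Within the COS family the correlation across genes, a description over few genes that can share signal, rested on COS12 between the pairs of arrays. With all 11 genes it was -0.77 between arrays 1 and 2 and -0.61 between arrays 3 and 4, and without COS12 it was 0.01 and 0.57. Within the pairs it was 0.985 (arrays 1 and 3) and 0.904 (arrays 2 and 4), and 0.974 and 0.607 without COS12. The family median without COS12 was 0.28.

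Place on the chromosome was no part of the choice of members. Of the 23 PAU genes, 18 were among the first 10 annotated protein-coding genes from a chromosome end, and all 11 COS genes were. The 18 had a median of 0.29, with 17 positive means, and the 5 farther in, PAU2, PAU5, PAU7, PAU17 and PAU23, had a median of 0.21, with 4 positive means. Genes near the ends that belong to neither family also had positive medians. The 255 named genes within the first 10 had a median of 0.16, with 177 positive means (69.4%), and limma called 12 positive and 1 negative, where 1.37% and 1.86% of all features were called in each direction.

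The median of these other genes was larger nearer to the ends. It was 0.23 for 115 genes at places 1 to 5, 0.12 for 140 at 6 to 10, 0.07 for 290 at 11 to 20, 0.02 for 879 at 21 to 50 and 0.00 for 4058 farther in. The ratio was positive on all 4 arrays for 35.7% of the genes at places 1 to 5, a share between the 14.7% of all features and the 69.6% of PAU genes. The share of COS genes, 27.3%, was below that of these other genes. The arrays differed here in another way than in the PAU and COS families. At places 1 to 5 the median was 0.12, 0.34, 0.10 and 0.41 on arrays 1 to 4, with the larger values on arrays 2 and 4, whereas array 2 gave the lowest median in both families. None of these group differences was tested, as genes are not replicates of the arrays.

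**Figure D4:**
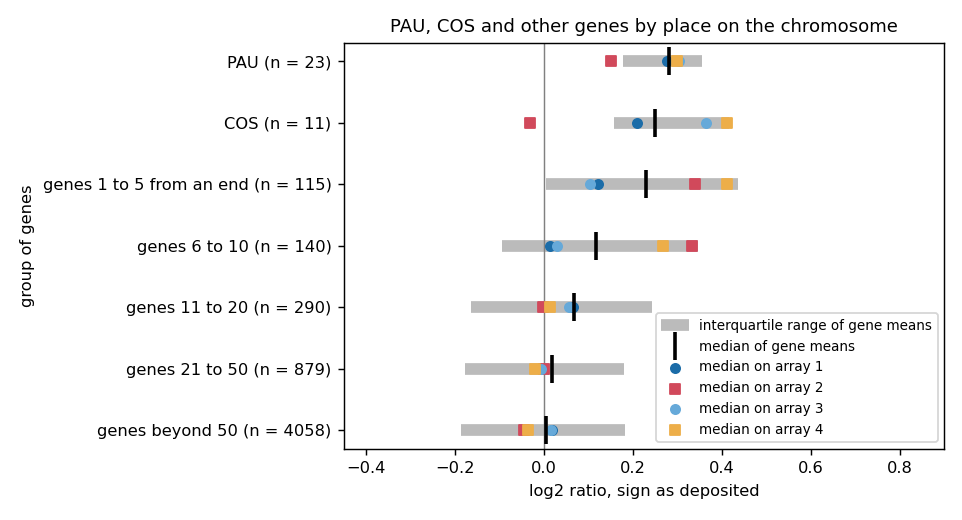
Log2 ratios of PAU genes, COS genes and other named genes grouped by their place from the nearest chromosome end (rows). Black ticks are medians of gene means, grey bars their interquartile ranges and coloured points the median on each array; the ticks of the other genes run from 0.23 at places 1 to 5 to 0.00 beyond place 50, and array 2 is lowest in the PAU and COS rows.

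A PAU and a COS gene both lay within the first 10 genes of 6 chromosome ends, which allows members of the families to be set side by side at 1 place. In 4 of the 6 both had positive means, where 91.3% of all PAU genes and 81.8% of all COS genes had them. The count therefore does not show that sharing an end matters. At the right end of chromosome II the adjacent PAU24 and COS2 had 0.26 and 0.31, and at the right end of chromosome VII the adjacent PAU12 and COS6 had 0.33 and 0.61. With 1 gene between them, PAU13 and COS8 had 0.27 and 0.68, and PAU6 and COS10 had 0.31 and 0.10. PAU6 and COS10 took their larger values on different arrays, 0.52 and -0.12 as means of arrays 1 and 3 against 0.10 and 0.32 on arrays 2 and 4. At the remaining 2 ends PAU11 and PAU16 had 0.13 and 0.36, while COS12 and COS9 had -0.32 and -0.46.

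Other gene lists related to these families gave a mixed picture. Of 51 measured members of other subtelomeric families, 41 had positive means (80.4%, against 52.5% of all features), with a median of 0.25. That pooled median was close to those of the PAU and COS genes, but the pairs ran the opposite way to the PAU family, as arrays 1 and 3 gave a median of 0.04 while arrays 2 and 4 gave 0.43. Limma called 3 of the 51, against 3.23% of all features, and all 3 were positive: DSF1, for a putative mannitol dehydrogenase, at 0.93 ± 0.21 (SD, n = 4), HXT15, for a hexose transporter, at 0.55 ± 0.05, and HSP32, of the HSP31 family, at 1.23 ± 0.34. Of 9 DAN, TIR and related mannoprotein genes, the relatives of the PAU family, 6 had positive means (66.7%), with a median of 0.10. Limma called 3 of the 9, against the same 3.23%, with DAN1 (0.97 ± 0.24) and TIP1 (0.80 ± 0.25) positive and TIR3 (-0.64 ± 0.13) negative.

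The 12 listed anaerobic and haem-regulated genes did not as a list share the PAU direction. Of these, 5 had positive means (41.7%, against 52.5% of all features), and the median was -0.03. Limma called 1 of the 12, against 3.23% of all features. This was NCP1, for the reductase that serves cytochrome P450, negative at -0.73 ± 0.14 (SD, n = 4). The positive DAN1 was counted with the mannoproteins and not in this list. Of 19 regulators, among them repressors of PAU genes and silencing proteins, limma called 0, with 6 at an unadjusted p below 0.05, against 20.8% of all features. The median of these regulators was -0.02 over the means of 4 arrays, which hides a split, as it was -0.30, 0.29, -0.32 and 0.15 on arrays 1 to 4. Of the 19, 9 (47.4%) were negative on arrays 1 and 3 and positive on arrays 2 and 4, against 18.0% of all features. The largest means were -0.56 ± 0.24 for ECM22, an activator of sterol genes, and -0.49 ± 0.25 for RAP1, the telomere binding protein gene, neither of them called. Of 10 listed DUP240 genes, which are relatives of the COS family, 5 were measured. Limma called 0 of the 5, against 3.23% of all features. There were 0 at an unadjusted p below 0.05, against 20.8%, and 0 called with the term for the pair, against 32.7%. A list of 5 genes is too short to be told apart from these shares. The means of the 5 genes ran from -0.13 (UIP3) to 0.10 (MST28). Of 20 genes of endosomal sorting, the process in which Cos proteins act, limma called 0, with 2 at an unadjusted p below 0.05, against 20.8% of all features, and 5 (25%) called with the term for the pair, below the 32.7% of all features. Their median was -0.08, and SNF7 had -0.50 ± 0.18 and VPS20 0.36 ± 0.37, both for subunits of the sorting complex ESCRT-III and neither called.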

How the data were processed

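The authors deposited 1 log2 ratio per probe and array for 6226 probes, with 0 missing values and 0 columns without a sample. The ratios were assumed to be logs of base 2, and the fold differences depend on this. Base, numerator, dyes and normalization are stated neither in the labels nor in the table. Probes were named through the platform annotation (5576 with 1 gene, 650 without). Arrays were centred on their medians, probes of a gene were averaged, and ratios were tested against 0 with lmFit and eBayes of limma 3.58.1 in R 4.3.3, two-sided, on 3 residual degrees of freedom, with p-values adjusted over 6189 features by the Benjamini-Hochberg method; an adjusted p below 0.05 is called. The fit was tested on simulated data with independent arrays and a common spread for all features. The arrays here form pairs, so that test does not show how the fit behaves with them. RefSeq R64 gave names, annotated lengths and gene order among protein-coding genes. The number of arrays limits the precision.

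The members, lists, array pairs and tests were chosen with earlier results of these data known. From each other list the called genes are named, or the 2 with the largest means where none was called. The neighbouring genes were picked once the values were known. The other settings tried are given with their effect in the closing section, and medians without COS12, without COS9 and COS12, and without PAU7, PAU21 and PAU22 were added after seeing the data.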

Additional observations from a re-analysis of the deposited data

Results flagged for a closer look

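For each of 38 values, the 35 genes and 3 group medians, the 4 arrays were searched for 1 array far from the other 3, and chance marks about 1 in 20 of such sets of 4. In COS7 array 2 stood apart at -0.083, with the others between 0.44 and 0.52. In PAU18 array 4 stood apart at 0.46, with the others between 0.05 and 0.08. In the median of the PAU family array 2 stood apart at 0.15, with the others between 0.28 and 0.30.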

How the results depend on the processing

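Under 8 settings (no centring, equal spread, quantile normalization, single probes, shared values left out, robust eBayes, array weights and medians over arrays) all 35 genes kept the sign of the ratio, and none was called in the 7 that have a test, medians over arrays having none. No paired analysis was possible because the arrays form 1 group and each is already a ratio of both strains. Features called numbered 98 with quantile normalization, 2 at an adjusted p below 0.01, 2021 with the term for the pair, 2059 on arrays 1 and 3 alone, 2602 on arrays 2 and 4 alone, 302 with the signs of arrays 2 and 4 turned, and 0 to 22 with 1 array left out, where 0 PAU and 0 COS genes were called. With the term for the pair 15 of 23 PAU and 6 of 11 COS genes were called, against 32.7% of all features. On arrays 1 and 3 alone 9 PAU and 6 COS genes were called, against 33.3%. On arrays 2 and 4 alone 5 PAU and 2 COS genes were called, against 42.0%. When signs were turned 0 PAU genes and 1 COS gene were called, against 4.88%. With turned signs the family medians were 0.028 for PAU and 0.033 for COS. With 1 array left out the medians lay between 0.25 and 0.32 for PAU and between 0.21 and 0.31 for COS. That turned signs lower these medians follows from their construction; for the others the cause was not tested. Among the settings run, reversed signs were confined to pairs alone, turned signs and arrays left out. On arrays 1 and 3 alone COS10 had -0.12, PAU19 -0.14, PAU23 -0.10, PAU4 -0.036, PAU8 -0.18 and COS111 -0.86, and on arrays 2 and 4 alone COS12 had 1.79 and PAU15 0.27. With turned signs COS10 had -0.22, COS2 -0.18, PAU11 -0.10, PAU14 -0.0042, PAU18 -0.10, PAU19 -0.32, PAU21 -0.0074, PAU23 -0.19, PAU24 -0.011, PAU3 -0.21, PAU4 -0.11, PAU7 0.045, PAU8 -0.43 and COS111 -1.19. With 1 array left out COS12 ranged from -1.11 to 0.45, PAU15 from -0.16 to 0.094, PAU23 from -0.030 to 0.18, PAU4 from -0.015 to 0.25 and COS111 from -0.077 to 0.77. The COS median was 0.28 without COS12 and 0.31 without COS9 and COS12, and the PAU median was 0.29 without PAU7, PAU21 and PAU22.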
